A study of Homo sapiens with 9 samples.

Results

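Of the 62666 genes in the deposited table, 55 nuclear genes of the mitochondrial respiratory chain are described here. They were chosen by gene symbol, with earlier results of these data known: 36 subunits of complex I, all 4 of complex II, 7 of complex III, 6 of complex IV and 2 of ATP synthase. All 55 were in the table, and all 55 passed the filter on low counts that left 17910 genes for testing. The study sequenced polyadenylated RNA from 3 human mammary epithelial cell lines of a single lineage, to follow gene expression as breast cancer progresses. MCF10A is an immortalised line that does not form tumours, MCF10AT1 is its descendant that carries an activated HRAS transgene, and MCF10Ca1a is a malignant descendant of it that was derived by passage in mice. Each line gave 3 libraries, 9 in all, from untreated cells in DMEM/F12 with horse serum, insulin (10 ug/mL), epidermal growth factor (20 ng/mL), hydrocortisone (500 ng/mL), cholera toxin (100 ng/mL), NaHCO3 (14 mM) and L-glutamine (2 mM). Serum was 2.5% for MCF10AT1 and 5% for the other lines, so in comparisons with MCF10AT1 the line and the serum cannot be told apart. Each group is 1 cell line, and nothing in the labels says whether its replicates were separate cultures, so p-values measure the spread between these libraries, which may be technical.

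The respiratory chain sits in the inner mitochondrial membrane. Complex I takes electrons from NADH and complex II takes them from succinate, both pass them to coenzyme Q, complex III hands them on to cytochrome c, and complex IV delivers them to oxygen. Complexes I, III and IV pump protons, and ATP synthase uses the returning protons to make ATP. Complexes I, III and IV and ATP synthase are built from subunits of nuclear and of mitochondrial DNA, while complex II is nuclear alone, and a full complex needs each subunit in a fixed proportion. Breast tumour cells are known both for glycolysis and for retained respiration. The genes of mitochondrial DNA were not analysed here.

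Depth ran from 32930503 to 69508842 estimated counts per library, with the lowest values in the 3 MCF10Ca1a libraries, and the 55 genes took between 0.675% and 0.819% of the counts of a library. Epithelial markers were present in each line: the summed level of CDH1, EPCAM, KRT8 and KRT18 was 388 to 528 TPM in MCF10A, 1126 to 1263 in MCF10AT1 and 1725 to 1802 in MCF10Ca1a, and 5 basal markers summed to 2237 to 3076, 2589 to 2914 and 2439 to 2481 TPM (a unit that corrects for transcript length and library size). The near-equal basal sums hide unlike genes: the mean level of KRT14 was 205 TPM in MCF10A, 38.8 in MCF10AT1 and 4.78 in MCF10Ca1a, and that of KRT5 was 1423 TPM in MCF10A, 1632 in MCF10AT1 and 419.6 in MCF10Ca1a. Markers of other cell types were low but moved between lines. The 5 fibroblast genes summed to 6.39 to 7.18 TPM in MCF10A, 27.6 to 31.5 in MCF10AT1 and 1.89 to 2.28 in MCF10Ca1a, the 3 endothelial genes to 0.554 to 0.746, 0.789 to 1.22 and 15.6 to 20.8, the 3 immune genes to 7.58 to 9.41, 3.39 to 3.94 and 0.178 to 0.281, and the 3 adipocyte genes to 0.159 to 0.373, 0.202 to 0.358 and 6.66 to 7.68. DCN, PECAM1, CD14 and PLIN1 made up most of these sums where they were highest, while COL1A2, LUM, PDGFRA, CDH5, VWF, PTPRC, CD3E and ADIPOQ were at or near 0 in every line. Of the epithelial markers, EPCAM was higher at each step, CDH1 was not called in MCF10AT1 against MCF10A (-0.01), and KRT8 was lower in MCF10Ca1a against MCF10AT1 (-0.36). The part of these marker changes in the results was not tested. The MCF10A libraries stood apart from each other in a way that follows transcript length. Across all genes tested, deviation from the line mean correlated with log effective length at r = 0.25 in MCF10A replicate 1 and r = -0.21 in replicate 3, while the other 7 libraries lay between -0.057 and 0.022. Respiratory chain transcripts are short: 51 of the 55 lay under the median effective length of the genes that passed the filter. Their median deviation was -0.13 (log2) in MCF10A replicate 1 and 0.13 in replicate 3, so the splits without each of these libraries are given below for all members and for complex I.

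Levels were compared between genes on the TPM scale. The 55 genes together made up 1.5% to 1.64% of all TPM in a library. In complex I, NDUFS5, an accessory subunit of the membrane arm, was the most abundant (652 ± 25.5 TPM in MCF10A, 646 ± 15.1 in MCF10AT1 and 632 ± 4.20 in MCF10Ca1a; SD, n = 3). NDUFV3, an accessory protein of the NADH-binding tip, was the least abundant of all 55 (25.7 ± 3.49, 23.4 ± 1.49 and 23.4 ± 1.04 TPM). Subunits of a single enzyme thus differed widely in RNA level. In complex II, SDHD had the highest level averaged over the lines and SDHA the lowest (264 TPM in MCF10A, 313 in MCF10AT1 and 241 in MCF10Ca1a, against 57.4 TPM in MCF10A, 55.2 in MCF10AT1 and 137 in MCF10Ca1a), although in MCF10Ca1a SDHB was above SDHD (275 TPM). In complex III, UQCRH (733 TPM in MCF10A, 697 in MCF10AT1 and 901 in MCF10Ca1a) was the most and UQCRFS1 (65.9 TPM in MCF10A, 82.7 in MCF10AT1 and 50.7 in MCF10Ca1a) the least abundant. In complex IV these were COX4I1 (681 TPM in MCF10A, 607 in MCF10AT1 and 941 in MCF10Ca1a) and COX5B (257 TPM in MCF10A, 323 in MCF10AT1 and 263 in MCF10Ca1a), although in MCF10A COX6C was above COX4I1 (746 TPM). Of the ATP synthase pair, the catalytic beta subunit ATP5F1B (779 TPM in MCF10A, 742 in MCF10AT1 and 818 in MCF10Ca1a) lay above the alpha subunit ATP5F1A (566 TPM in MCF10A, 589.8 in MCF10AT1 and 445 in MCF10Ca1a).

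Summed over its members, complex I stood at 7753 ± 328 TPM (SD, n = 3) in MCF10A, 8535 ± 84.5 in MCF10AT1 and 7401 ± 78.1 in MCF10Ca1a. The MCF10AT1 libraries lay above all others, and the ranges of MCF10A and MCF10Ca1a overlapped. Complex II stood at 723 ± 15.8, 806 ± 18.9 and 879.6 ± 4.05 TPM, and the 3 lines did not overlap. Complex III was at 2550.1 ± 86.4, 2525 ± 27.7 and 2549.9 ± 37.9 TPM, and its lines overlapped. The same held for complex IV (3135 ± 146, 2989 ± 63.3 and 3062 ± 29.7) and for the ATP synthase pair (1345 ± 94.8, 1332 ± 116 and 1263 ± 14.7). These sums were not tested. In RNA from whole cultures, fewer cells that express a gene and less RNA per cell cannot be told apart.

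**Figure D1:**
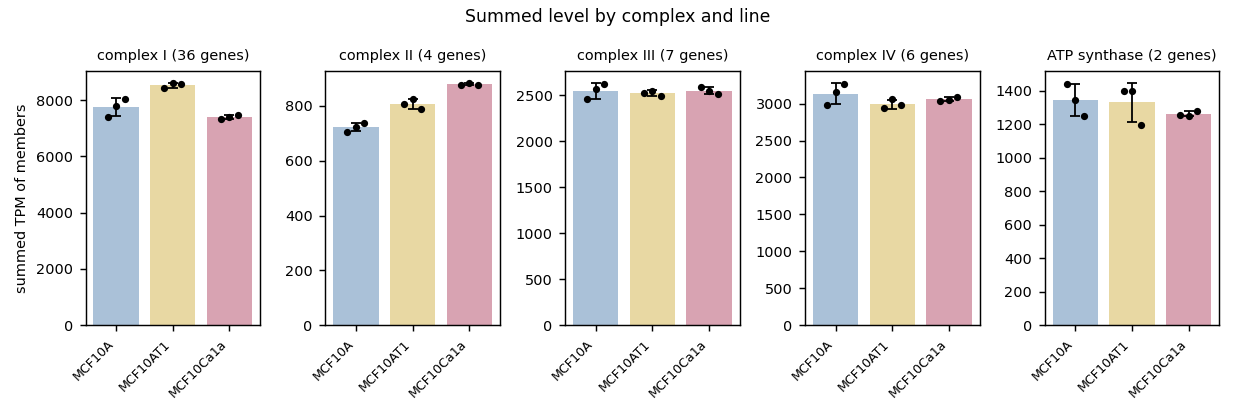
Summed TPM of the members of each complex (y axis, from 0, with a separate scale per panel) in MCF10A, MCF10AT1 and MCF10Ca1a. Bars are means, error bars are SDs and points are the 3 libraries of a line: complex II rises from 723 to 879.6 TPM, while complexes III and IV overlap between lines.

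In MCF10AT1 against MCF10A, 30 of the 55 genes were higher, 3 were lower (NDUFA13, CYC1 and COX6C) and 22 were not called by edgeR's quasi-likelihood test at an adjusted p under 0.05. Over all genes tested, 29.8% were called higher and 31.8% lower, 61.6% in all. Values within a gene are given as CPM (counts scaled to library size with TMM factors), and changes as log2 values with their SE. The median log2 change of the 55 was 0.20, against -0.00 over all genes. The median size of a change was 0.22 on the log2 scale, against 0.38 over all genes, and only NDUFB6 passed 2-fold (background 9.36% higher and 8.64% lower, 18% in all). Short genes as a class were also higher: the 1315 tested genes at or under the median length of the members had a median of 0.24. With a trend on transcript length removed in each library, the split was 22 higher and 14 lower with a median of 0.03, and on log2(TPM + 1) it was 20 and 9 with a median of 0.07. Without MCF10A replicate 1 it was 29 and 7, and without replicate 3 it was 37 and 2. Of the 30 rises 19 kept their sign and call under every alternative run, and of the 3 falls 2 did (CYC1 and COX6C). TPM or the length trend took away 11 of the rises.

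In MCF10Ca1a against MCF10A, 15 genes were higher, 27 were lower and 13 were not called, against a background of 39% higher and 41.9% lower, 80.9% in all. The median change of the members was -0.15 and that of all genes was -0.05. SDHA rose and NDUFA5 and NDUFA1 fell by at least 2-fold, against 21.2% of all genes higher and 21.7% lower past that size, 42.9% in all. The median size of a change was 0.40 among the members and 0.84 over all genes, and the short genes had a median of 0.08. Without MCF10A replicate 1 the split was 14 and 33, and without replicate 3 it was 16 and 25. On log2(TPM + 1) it was 18 and 22, and the median was -0.04. Of the calls, 12 rises and 21 falls held under every alternative run.

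In MCF10Ca1a against MCF10AT1, 7 genes were higher, 38 were lower and 10 were not called, against 38% and 40.3% of all genes, 78.4% in all. The median change of the members was -0.40 and that of all genes was -0.04. SDHA was the only member at least 2-fold higher, and NDUFA5, NDUFA12, NDUFB3 and NDUFA1 were at least 2-fold lower (background 18.2% and 19.5%, 37.7% in all). The short genes had a median of -0.15. The split was 11 and 31 with the length trend removed, with a median of -0.22. On log2(TPM + 1) it was 18 and 27 with a median of -0.08, a scale on which the median of all genes shifted to 0.13. On that scale the members lay 0.21 below all genes. Of the calls, 6 rises and 27 falls held under every alternative run, and 11 falls were lost on TPM or with the length trend removed. The 3 comparisons share libraries, so values are set side by side: where 3 changes of a gene are given in a row, they run in the order of these paragraphs.

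**Figure D2:**
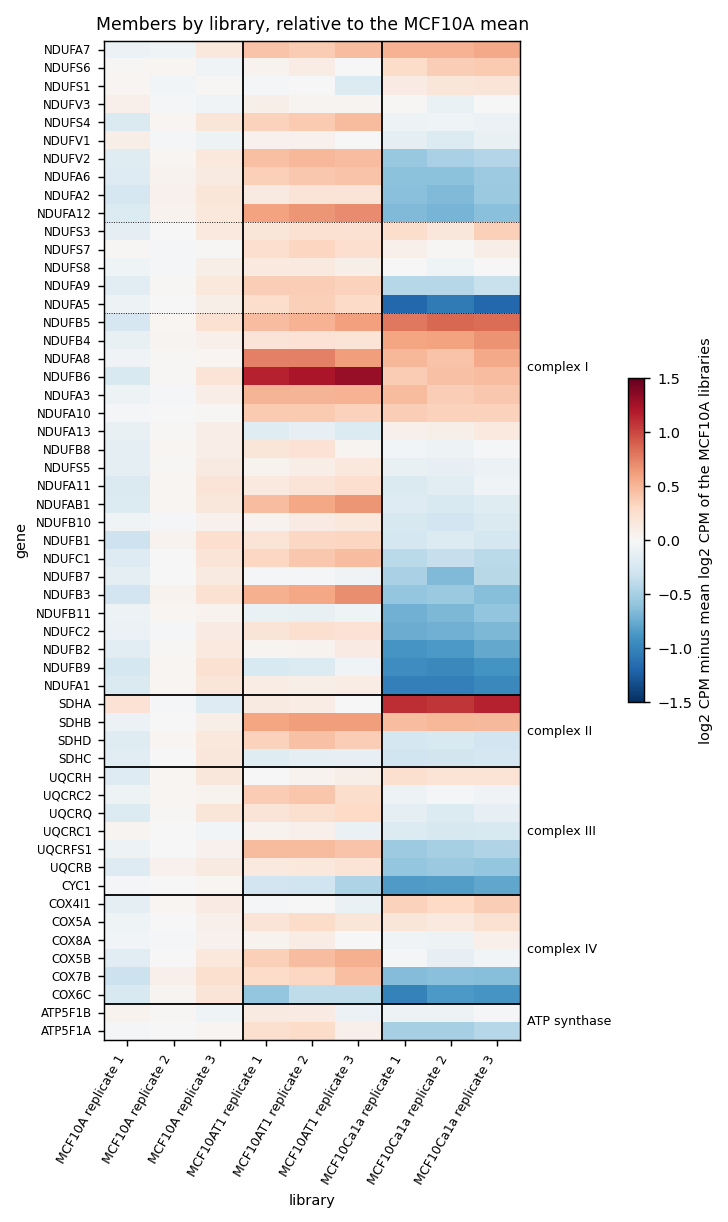
Each of the 55 genes (rows, grouped by complex, with complex I split by dotted lines into its N, Q and P modules from the top) in each of the 9 libraries (columns), as log2 CPM minus the mean log2 CPM of the 3 MCF10A libraries. Red is higher and blue lower: the NDUFB6 row is darkest in MCF10AT1, the SDHA row is red in MCF10Ca1a and the NDUFA5 row is blue there.

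Complex I is an L-shaped enzyme whose N module oxidises NADH, whose Q module reduces coenzyme Q and whose membrane-bound P module pumps protons. The background over all genes tested was 29.8% higher and 31.8% lower in MCF10AT1 against MCF10A. It was 39% and 41.9% in MCF10Ca1a against MCF10A, and 38% and 40.3% against MCF10AT1. In MCF10AT1 against MCF10A, 21 of the 36 complex I genes were higher and 1 was lower. In MCF10Ca1a complex I had 10 higher and 18 lower against MCF10A, and 5 higher and 26 lower against MCF10AT1. The first of these splits was 16 and 8 with the length trend removed, 14 and 5 on log2(TPM + 1), 19 and 3 without MCF10A replicate 1 and 27 and 0 without MCF10A replicate 3. The second was 10 and 22 without MCF10A replicate 1 and 11 and 16 without replicate 3. The third was 10 and 19 on log2(TPM + 1) and 8 and 21 with the length trend removed.

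Of the 10 N-module genes, 5 were higher and 0 lower in MCF10AT1 against MCF10A (NDUFA6, NDUFA7, NDUFA12, NDUFS4 and NDUFV2). In MCF10Ca1a against MCF10A, 3 were higher (NDUFA7, NDUFS1 and NDUFS6) and 5 lower (NDUFA2, NDUFA6, NDUFA12, NDUFV1 and NDUFV2). Over all genes tested, 29.8% were higher and 31.8% lower in the first of these comparisons, and 39% and 41.9% in the second. NDUFA12, an accessory subunit that takes its place late in assembly, read 52.3, 62.4 and 67.3 CPM in MCF10A, then 91.6, 95.3 and 98.6 in MCF10AT1 and 38.2, 37.1 and 39.0 in MCF10Ca1a. All 3 lines were separate, with MCF10AT1 highest. The change was 0.65 ± 0.07 (adjusted p = 4.8e-06) in MCF10AT1 against MCF10A on the log2 scale, -0.67 ± 0.08 (adjusted p = 2.3e-06) in MCF10Ca1a against MCF10A, and -1.32 ± 0.08 (adjusted p = 1.9e-09) in MCF10Ca1a against MCF10AT1. NDUFV2, an iron-sulfur subunit of the NADH site, followed the same order with 0.46, -0.50 and -0.97. NDUFA2 changed by 0.16, -0.62 and -0.78, NDUFA7 by 0.42, 0.53 and 0.11, and NDUFS4 by 0.39, -0.09 and -0.48. The first value of NDUFA2, the last of NDUFA7 and the second of NDUFS4 were not called. These values passed the threshold under 2, 6 and 3 alternatives. NDUFV1, which holds the flavin and the NADH site, had small values (0.05, -0.15 and -0.20, the first not called), and its call in MCF10Ca1a against MCF10A was lost under 8 alternatives, among them the length trend, and that against MCF10AT1 was lost on TPM and with the length trend removed. NDUFS1, the largest subunit of the enzyme, was higher in MCF10Ca1a against MCF10A (0.16 ± 0.06, adjusted p = 0.022), a call that was lost with no filter on low counts (0.089) and without MCF10A replicate 2 or MCF10Ca1a replicate 2 or 3, while its highest value under any alternative was 0.50. NDUFV3 was called in no comparison by this test and read 46.4, 43.1 and 42.5 CPM in MCF10A, then 46.7, 45.2 and 45.1 in MCF10AT1 and 44.4, 41.2 and 43.8 in MCF10Ca1a.

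All 5 Q-module genes (NDUFA5, NDUFA9, NDUFS3, NDUFS7 and NDUFS8) were called higher in MCF10AT1 against MCF10A, by 0.13 to 0.36. Over all genes tested, 29.8% were called higher there. On log2(TPM + 1) 1 of the 5 was called higher, and 2 were with the length trend removed. The smallest of them, NDUFS8, was lost or changed sign in 17 of 21 alternatives. NDUFA5, an accessory subunit on the matrix arm, had the lowest value of the set against both other lines: it read 71.1, 74.6 and 79.7 CPM in MCF10A, then 90.3, 96.3 and 91.5 in MCF10AT1 and 33.2, 35.9 and 33.2 in MCF10Ca1a. The MCF10Ca1a libraries lay far under all 6 others. The change was -1.14 ± 0.06 (adjusted p = 3.1e-10) against MCF10A and -1.44 ± 0.06 (adjusted p = 3.8e-11) against MCF10AT1, a 0.454-fold and a 0.368-fold level. The core subunits NDUFS7 and NDUFS8, which carry the iron-sulfur clusters nearest to coenzyme Q, were not called in MCF10Ca1a against MCF10A (0.06 and -0.02). On the TPM scale NDUFS8 was called higher there (0.11). NDUFA9 was called in all comparisons, at 0.36, -0.40 and -0.76. NDUFS3 was higher in MCF10Ca1a against MCF10A (0.26 ± 0.07, adjusted p = 0.004), so genes of this small module moved apart.

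Of the 21 P-module genes, 11 were higher and 1 lower in MCF10AT1 against MCF10A, 6 and 11 in MCF10Ca1a against MCF10A, and 3 and 16 in MCF10Ca1a against MCF10AT1. With the length trend removed the first of these was 8 and 7, and its median went from 0.20 to -0.03. Without MCF10A replicate 1 it was 10 and 3, and without replicate 3 it was 16 and 0. The last was 5 and 12 on log2(TPM + 1). Over all genes tested, the shares higher and lower were 29.8% and 31.8%, 39% and 41.9%, and 38% and 40.3% in the same order. NDUFB6, an accessory subunit of the membrane arm, read 47.3, 56.2 and 63.6 CPM in MCF10A, then 123, 129 and 137 in MCF10AT1 and 72.0, 75.2 and 76.1 in MCF10Ca1a. No line overlapped another, and MCF10AT1 was highest. The rise from MCF10A to MCF10AT1 was 1.22 ± 0.09 (adjusted p = 3.2e-08) or 2.33-fold, and MCF10Ca1a lay 0.42 above MCF10A and changed by -0.80 ± 0.09 (adjusted p = 1.0e-06) against MCF10AT1. NDUFA8, which belongs to the intermembrane-space side, rose in the same comparison by 0.71 ± 0.06 (adjusted p = 9.4e-08).

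NDUFB5 and NDUFB4, both membrane-arm accessory subunits, were highest in MCF10Ca1a. NDUFB5 read 75.0, 90.8 and 104 CPM in MCF10A, then 123, 129 and 137 in MCF10AT1 and 154, 163 and 159.9 in MCF10Ca1a, and its lines did not overlap. It rose by 0.82 ± 0.09 (adjusted p = 1.8e-06) in MCF10Ca1a against MCF10A, and by 0.29 ± 0.09 (adjusted p = 0.01) against MCF10AT1, a call lost without MCF10AT1 replicate 1. NDUFB4 read 85.8, 95.8 and 98.0 CPM in MCF10A, then 106, 108 and 107 in MCF10AT1 and 139.6, 142 and 149 in MCF10Ca1a. It rose by 0.62 ± 0.06 (adjusted p = 1.7e-07) in MCF10Ca1a against MCF10A and by 0.42 ± 0.06 (adjusted p = 1.0e-05) against MCF10AT1, and the MCF10Ca1a libraries lay above the other 6.

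NDUFA1, a small membrane subunit needed for assembly, read 75.1, 89.5 and 99.3 CPM in MCF10A, then 94.0, 92.7 and 94.1 in MCF10AT1 and 42.9, 42.9 and 44.5 in MCF10Ca1a. The MCF10A and MCF10AT1 libraries overlapped and those of MCF10Ca1a lay well below. It fell by 1.02 ± 0.08 (adjusted p = 3.9e-08) on the log2 scale from MCF10A to MCF10Ca1a. NDUFB3 read 60.9, 76.7 and 86.9 CPM in MCF10A, then 107, 111 and 120.5 in MCF10AT1 and 49.6, 50.4 and 47.6 in MCF10Ca1a, and fell from MCF10AT1 to MCF10Ca1a with a change of -1.20 ± 0.10 (adjusted p = 8.0e-08). NDUFB9 (-0.95), NDUFB2 (-0.84) and NDUFC2 (-0.72) also had called falls in MCF10Ca1a against MCF10A. NDUFA13, also known as GRIM-19, was the only complex I gene called lower in MCF10AT1 against MCF10A. It read 85.2, 93.2 and 98.5 CPM in MCF10A, then 81.5, 84.7 and 80.1 in MCF10AT1 and 97.5, 97.9 and 102 in MCF10Ca1a. The change from MCF10A to MCF10AT1 was -0.17 ± 0.06 (adjusted p = 0.02), and this call was lost when only those lines were fitted or without MCF10A replicate 2 or 3 or MCF10AT1 replicate 1 or 3. It was higher in MCF10Ca1a against MCF10AT1 (0.27 ± 0.06, adjusted p = 6.7e-04). Among the remaining P-module genes, NDUFA3 and NDUFA10 were called higher against MCF10A in both other lines (0.51 and 0.41 for NDUFA3, 0.37 and 0.35 for NDUFA10). NDUFAB1 and NDUFC1 were higher in MCF10AT1 (0.56 and 0.39) and lower in MCF10Ca1a (-0.21 and -0.40) against MCF10A. NDUFB7, NDUFB10 and NDUFB11 were called in both comparisons with MCF10Ca1a, with values of -0.52, -0.25 and -0.66 against MCF10A. In MCF10AT1 against MCF10A they were not, but on log2(TPM + 1) NDUFB7 (-0.18) and NDUFB11 (-0.26) were called lower there, and after thinning NDUFB10 (0.16) was called higher. NDUFA11, NDUFB8 and NDUFS5 were called in MCF10Ca1a against MCF10AT1 (-0.34, -0.20 and -0.21) and not in the others. These 3 calls were lost on log2(TPM + 1), at -0.056, 0.056 and -0.030, and each gene was called in both comparisons with MCF10A under other alternatives. NDUFB1 was called in all comparisons, at 0.26, -0.26 and -0.52. The call of NDUFB1 in MCF10AT1 against MCF10A was lost or changed sign under 13 alternatives, and those of NDUFB1 and NDUFAB1 in MCF10Ca1a against MCF10A were each lost under 12.

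**Figure D3:**
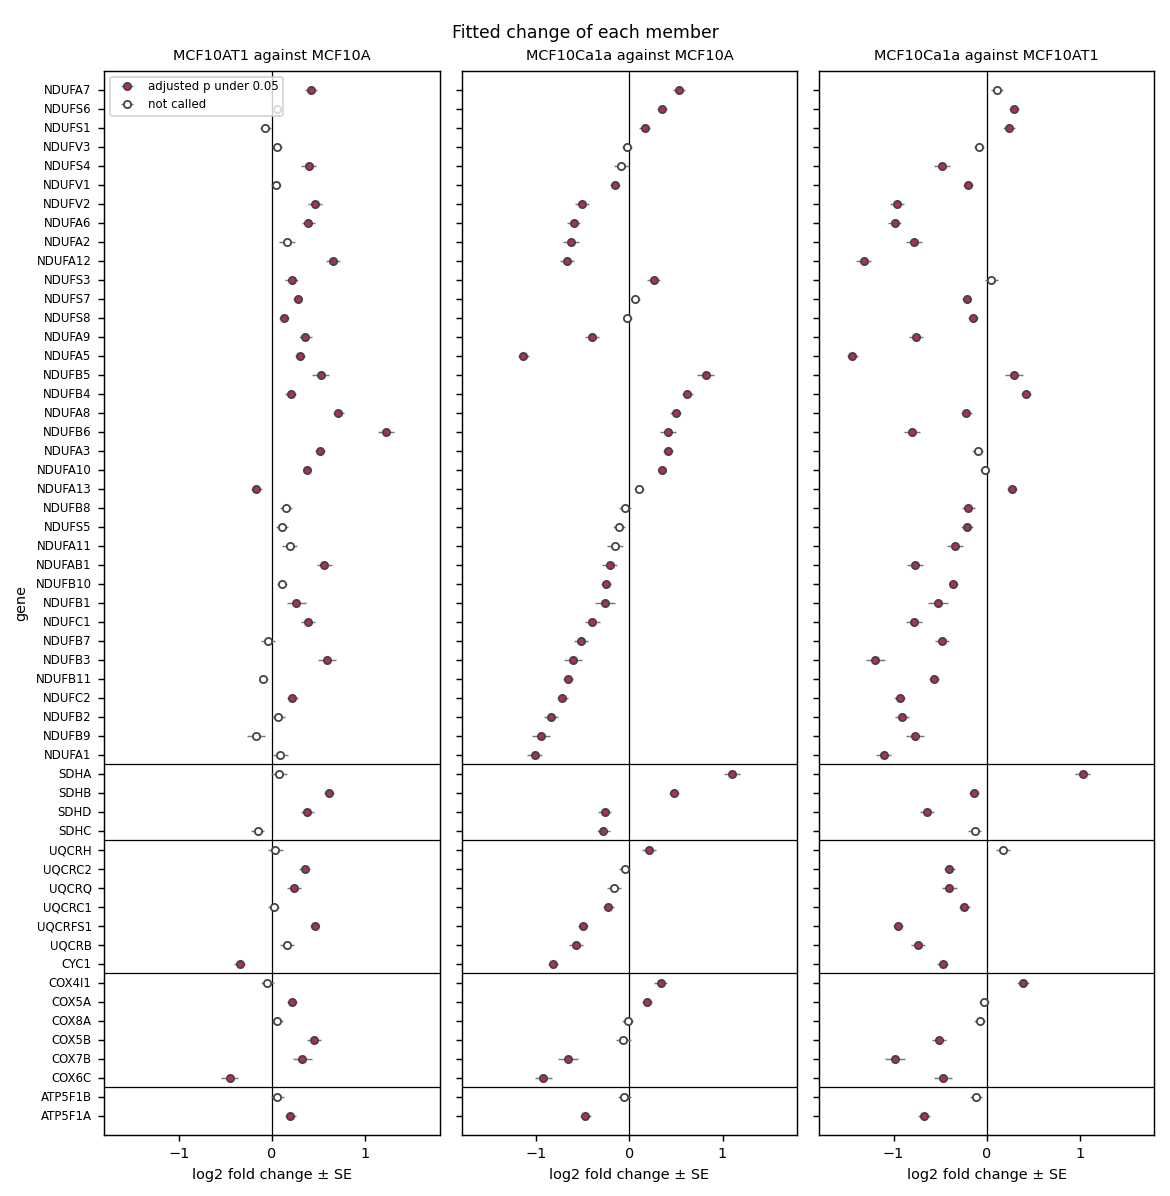
Fitted log2 fold change of each gene (x axis, with SE bars) in the 3 comparisons, with genes in the same order as in the plot by library and lines between complexes. Filled points passed an adjusted p of 0.05 and open points did not: 30 filled points lie right of 0 in MCF10AT1 against MCF10A and 38 lie left of 0 in MCF10Ca1a against MCF10AT1.

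Complex II, succinate dehydrogenase, is the enzyme that the respiratory chain and the citrate cycle share, and its 4 subunits did not move together. The median of the 4 in MCF10Ca1a against MCF10AT1 was -0.13 on counts, but 0.04 with the length trend removed and 0.20 on log2(TPM + 1). SDHA, the flavoprotein that oxidises succinate, read 136, 114 and 102 CPM in MCF10A, then 127, 125 and 117 in MCF10AT1 and 251, 245 and 258 in MCF10Ca1a. The MCF10Ca1a libraries lay far above the other 6, which overlapped. SDHA rose by 1.10 ± 0.09 (adjusted p = 2.7e-08) in MCF10Ca1a against MCF10A, 2.15-fold, and by 1.03 ± 0.08 (adjusted p = 6.4e-08) against MCF10AT1.

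SDHB, the iron-sulfur subunit, read 106, 112 and 119.8 CPM in MCF10A, then 169.6, 174 and 173 in MCF10AT1 and 155, 159 and 157 in MCF10Ca1a. Its MCF10A libraries were below all others. It rose by 0.62 ± 0.05 (adjusted p = 2.9e-07) in MCF10AT1 and by 0.48 ± 0.05 (adjusted p = 1.5e-06) in MCF10Ca1a against MCF10A, and between the later lines it changed by -0.14 ± 0.05 (adjusted p = 0.033), a call lost under DESeq2's test or size factors, with thinning and without MCF10AT1 replicate 2 or any MCF10Ca1a library. On log2(TPM + 1) this value was 0.13, and it was 0.034 with the length trend removed. On counts, the membrane anchors were lower in MCF10Ca1a than in MCF10A. SDHD read 121, 140.2 and 153 CPM in MCF10A, then 175, 186 and 177 in MCF10AT1 and 114, 117 and 113 in MCF10Ca1a. It changed by 0.38 ± 0.07 (adjusted p = 4.2e-04), -0.27 ± 0.07 (adjusted p = 0.0039) and -0.64 ± 0.07 (adjusted p = 1.7e-06) in the order of the comparisons. The call of SDHD in MCF10Ca1a against MCF10A was lost on log2(TPM + 1) without a filter. SDHC read 126, 142 and 159 CPM in MCF10A, then 125, 129 and 129.5 in MCF10AT1 and 115, 117 and 119 in MCF10Ca1a, and it was called in MCF10Ca1a against MCF10A (-0.28 ± 0.07, adjusted p = 0.0023) and not in the other comparisons. That call was lost with the deposited length-scaled and scaled counts (-0.11 in each), and on log2(TPM + 1) the value was 0.06. On that scale SDHC was called lower in MCF10AT1 against MCF10A (-0.23) and higher in MCF10Ca1a against MCF10AT1 (0.28), while without a filter on counts the latter was called lower (-0.22).

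The stretch upstream of SDHA, SDHB and SDHD is shown because these genes of a single enzyme moved in different directions. Each runs 5′ to 3′ on the gene's strand, up to the first start annotated in RefSeq or GENCODE. Capitals mark the letters GCATGCG, the core site of the factor NRF1, CCGGAAG for ETS factors such as GABP, AAGATGG for YY1, AAGGTCA for estrogen-related receptors and TGACGTC for CREB, on either strand.
SDHA (chr5:218070-218240, plus strand): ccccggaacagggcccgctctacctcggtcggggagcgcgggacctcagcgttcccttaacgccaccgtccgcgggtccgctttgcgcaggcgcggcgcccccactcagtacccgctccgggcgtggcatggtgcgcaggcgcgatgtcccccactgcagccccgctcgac
SDHB (chr1:17054171-17054282, minus strand): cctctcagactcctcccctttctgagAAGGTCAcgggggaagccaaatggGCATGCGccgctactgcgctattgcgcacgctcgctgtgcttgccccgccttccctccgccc
SDHD (chr11:112086623-112086772, plus strand): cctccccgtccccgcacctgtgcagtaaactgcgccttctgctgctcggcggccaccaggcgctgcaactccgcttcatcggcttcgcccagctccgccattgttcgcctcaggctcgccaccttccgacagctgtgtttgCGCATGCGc

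The SDHB stretch holds an estrogen-related receptor motif and an NRF1 core, and the SDHD stretch holds an NRF1 core near its end. None of these exact letters occurred in the SDHA stretch. NRF1 sites can be longer and looser than the core, such forms are not counted here (one was looked for after the SDHA letters were seen), and no contrast of SDHA with SDHB and SDHD in NRF1 sites can be drawn. Outside the printed stretch, the 300-base windows of SDHB and SDHD also hold the ETS motif, that of SDHB the YY1 and CREB motifs and that of SDHD the estrogen-related receptor motif. Promoters of 46 of the 55 members were in the RefSeq table (GRCh38.p14), and 39 of the 46 started within 1 kb of the GENCODE start. Over the 300-base windows (250 before the start and 50 after), the NRF1 core was in 17.4% of the 46 and in 4.63% of the 22199 windows of protein-coding genes. The ETS motif was in 26.1% and 12.8%, the YY1 motif in 21.7% and 6.04%, the estrogen-related receptor motif in 15.2% and 3.22%, and the CREB motif in 10.9% and 4.09%. The E-box CACGTG (6.52% and 8.34%), the CCAAT box (26.1% and 34.7%) and the SP motif GGGCGG (60.9% and 56.3%) were nearer to each other as a ratio, and the median GC content was 62.3% in both sets. Matches describe letters only, and binding was not measured.

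Complex III passes electrons from coenzyme Q to cytochrome c. Of its 7 genes, 3 were higher and 1 lower in MCF10AT1 against MCF10A, 1 higher and 4 lower in MCF10Ca1a against MCF10A, and 0 higher and 6 lower in MCF10Ca1a against MCF10AT1. On log2(TPM + 1) the last split was 2 and 3, and the first was 2 and 2 with the length trend removed. Over all genes tested, the shares higher and lower were 29.8% and 31.8%, 39% and 41.9%, and 38% and 40.3% in the same order. UQCRFS1, the Rieske iron-sulfur protein, read 107, 114 and 119 CPM in MCF10A, then 156, 157 and 152 in MCF10AT1 and 77.6, 80.1 and 82.9 in MCF10Ca1a. The lines did not overlap, with MCF10AT1 highest and MCF10Ca1a lowest, and the changes were 0.46 ± 0.05 (adjusted p = 4.2e-06), -0.50 ± 0.05 (adjusted p = 9.0e-07) and -0.95 ± 0.05 (adjusted p = 9.9e-10).

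CYC1, cytochrome c1 and the partner of the Rieske protein, fell at both steps. It read 203, 206 and 212 CPM in MCF10A, then 169.6, 168 and 150.2 in MCF10AT1 and 115, 115 and 121 in MCF10Ca1a, with no overlap. Its changes were -0.35 ± 0.06 (adjusted p = 1.2e-04), -0.82 ± 0.06 (adjusted p = 9.1e-09) and -0.47 ± 0.06 (adjusted p = 3.6e-06). UQCRH, the hinge protein that helps cytochrome c dock, read 182, 212 and 234 CPM in MCF10A, then 207, 216 and 221 in MCF10AT1 and 245, 240.4 and 241 in MCF10Ca1a. Its rise in MCF10Ca1a against MCF10A (0.21 ± 0.08, adjusted p = 0.021) was the only rise called in the complex there. It was lost without MCF10A replicate 1 or 2 or MCF10Ca1a replicate 1, with the deposited length-scaled or scaled counts, and with no filter. Against MCF10AT1 it was not called (0.17), but it was called higher under 11 of 21 alternatives, among them DESeq2's test (0.21) and log2(TPM + 1) (0.37). UQCRB, a small subunit at the coenzyme Q site, changed by -0.58 and -0.74 in MCF10Ca1a against MCF10A and MCF10AT1. The core protein UQCRC1 was lower in both (-0.23 and -0.24), and UQCRQ was called higher in MCF10AT1 (0.24) and lower from there to MCF10Ca1a (-0.40). Both UQCRC1 calls were lost on log2(TPM + 1) (-0.073 and 0.040) and with the length trend removed (-0.10 and -0.11). The rise of UQCRQ was lost under 6 alternatives, among them log2(TPM + 1) (0.10), the length trend (0.006) and leaving out MCF10AT1 replicate 3, and its fall was lost on log2(TPM + 1) (-0.082). UQCRC2, the other core protein, depended on the scale. Its counts gave -0.05 and -0.40 in MCF10Ca1a against MCF10A and MCF10AT1, while its TPM was 227 TPM in MCF10A, 257 in MCF10AT1 and 291 in MCF10Ca1a, and the log2(TPM + 1) changes were 0.36 and 0.18. Its transcript shares also shifted.

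Complex IV, cytochrome c oxidase, is assembled around a core made from mitochondrial DNA, to which the nuclear subunits are added. Of its 6 genes here, 3 were higher and 1 lower in MCF10AT1 against MCF10A, 2 and 2 in MCF10Ca1a against MCF10A, and 1 and 3 in MCF10Ca1a against MCF10AT1. The first median was 0.14, but -0.11 with the length trend removed, with 1 higher and 3 lower. The last split was 3 and 3 on log2(TPM + 1), with COX5A (0.20) and COX8A (0.15) newly called higher. Over all genes tested, the shares higher and lower were 29.8% and 31.8%, 39% and 41.9%, and 38% and 40.3% in the same order. The split in MCF10Ca1a against MCF10A lay near its share. COX6C read 138, 167 and 186 CPM in MCF10A, then 109, 125 and 125 in MCF10AT1 and 80.8, 89.8 and 88.4 in MCF10Ca1a. The lines did not overlap. It changed by -0.45 ± 0.09 (adjusted p = 7.5e-04), -0.92 ± 0.09 (adjusted p = 5.4e-07) and -0.47 ± 0.09 (adjusted p = 3.9e-04), so it was the gene of complex IV that fell in each comparison.

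COX4I1, the isoform of subunit IV that most tissues use, read 310.3, 349.9 and 374 CPM in MCF10A, then 336, 341 and 321 in MCF10AT1 and 435, 424 and 446 in MCF10Ca1a. It was higher in MCF10Ca1a than in either other line, which overlapped (0.34 ± 0.07, adjusted p = 3.6e-04 and 0.39 ± 0.07, adjusted p = 1.1e-04). COX7B read 111, 146 and 164 CPM in MCF10A, then 168, 171 and 189 in MCF10AT1 and 88.5, 89.5 and 88.8 in MCF10Ca1a, and was lower in MCF10Ca1a, at -0.66 ± 0.11 (adjusted p = 5.6e-05) and -0.99 ± 0.11 (adjusted p = 1.2e-06) on the log2 scale. COX5B read 88.2, 100.1 and 111 CPM in MCF10A, then 127, 137 and 144 in MCF10AT1 and 98.2, 91.3 and 96.7 in MCF10Ca1a, and rose in MCF10AT1 (0.45 ± 0.08, adjusted p = 1.7e-04) and was lower again in MCF10Ca1a (-0.51). The rise of COX7B in MCF10AT1 (0.33 ± 0.10, adjusted p = 0.015) was lost without MCF10AT1 replicate 3, with the length trend removed and on log2(TPM + 1) without a filter. COX5A was called higher against MCF10A in both other lines (0.22 and 0.19). The first call was lost on log2(TPM + 1) (0.098) and with the length trend removed (-0.019), and the second with no filter (0.11) and with the length trend removed (0.074). COX8A was called in no comparison by the reported fit and read 107, 107 and 114 CPM in MCF10A, then 113, 118 and 110.1 in MCF10AT1 and 105, 103 and 115 in MCF10Ca1a, with overlap between all lines.

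The F1 head of ATP synthase makes ATP at sites formed by its alpha and beta subunits, which occur in equal number. ATP5F1A, the alpha subunit, read 616, 634 and 642 CPM in MCF10A, then 743, 760.4 and 667 in MCF10AT1 and 448, 447 and 468 in MCF10Ca1a. MCF10Ca1a lay below both other lines, at -0.47 ± 0.06 (adjusted p = 5.8e-06) against MCF10A and -0.67 ± 0.06 (adjusted p = 1.6e-07) against MCF10AT1. The rise in MCF10AT1 (0.20 ± 0.06, adjusted p = 0.011) was lost on log2(TPM + 1) and without MCF10AT1 replicate 2. ATP5F1B, the beta subunit, was called in no comparison. It read 939.9, 922 and 867 CPM in MCF10A, then 998, 989 and 853 in MCF10AT1 and 863, 862 and 901 in MCF10Ca1a, with overlap throughout. NDUFV3, COX8A and ATP5F1B were thus the 3 members called in none of the comparisons by this fit, against 8.24% of all genes. Each was called under some alternative in MCF10Ca1a against MCF10AT1: ATP5F1B with no filter (-0.20) and without MCF10AT1 replicate 3 (-0.20), NDUFV3 with length-scaled counts (-0.29), and COX8A with no filter (-0.16), with length-scaled counts (-0.14) and, with the other sign, on log2(TPM + 1) (0.15).

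The transcripts that carried a gene's counts were compared as well. Of the 55 genes, 28 had at least 2 transcripts with a mean share of 5% or more and were tested (limma on log2 of each form's counts over those of the gene's other forms, with a Simes p per gene adjusted over all genes). In MCF10AT1 against MCF10A 1 of the 28 was called, in MCF10Ca1a against MCF10A 18, and in MCF10Ca1a against MCF10AT1 13. The background was 9.48%, 43.8% and 36.2%, so the first count lay under it. The 1 became 0 with a replicate block, and without MCF10A replicate 1 or 2 or MCF10AT1 replicate 2 or 3. The 18 was as low as 12 (without MCF10A replicate 2) and the 13 as low as 8 (without MCF10AT1 replicate 1 or 3).

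NDUFV3 was the gene called in MCF10AT1 against MCF10A (adjusted p = 0.029). This call was lost with a replicate block, and without MCF10A replicate 1 or 2 or MCF10AT1 replicate 2 or 3. It was also called in MCF10Ca1a against MCF10A (adjusted p = 1.9e-04) and against MCF10AT1 (adjusted p = 0.0034), while its total was not called on the deposited counts (0.05, -0.03 and -0.08). With the deposited length-scaled counts the total was called lower in MCF10Ca1a, at -0.30 against MCF10A (adjusted p = 0.0017 by edgeR) and -0.29 against MCF10AT1 (adjusted p = 0.002), and scaled counts gave -0.29 and -0.28. It was also called in MCF10Ca1a against MCF10AT1 with no filter (-0.17) and without MCF10A replicate 1 (-0.095), and in MCF10AT1 against MCF10A with the length trend removed (0.11). Transcript NDUFV3-201, of 3 exons and 108 codons, took 28.3, 30.8 and 32.8% in MCF10A, then 42.9, 41.8 and 42.3% in MCF10AT1 and 59.2, 56.3 and 59.6% in MCF10Ca1a of the gene's counts. NDUFV3-202, of 4 exons and 473 codons, took 22.9, 22.5 and 22.9% in MCF10A, then 10.2, 11.5 and 12.5% in MCF10AT1 and 4.34, 7.56 and 4.81% in MCF10Ca1a. The shares of the lines did not overlap in either, so the short form was higher and the long form lower in each later line. They differ by exon 3 of NDUFV3-202 (chr21:42903182-42904276, plus strand, GRCh38), a coding exon of 1095 bases or 365 codons, which NDUFV3-201 skips. The exon junctions that set them apart are shown with the downstream exon in capitals, from GENCODE 29.
NDUFV3-201, exon 2 to the last exon: aaagtccaccaaaaaAGCCAGCCCCAGTGC
NDUFV3-202, exon 2 to exon 3: aaagtccaccaaaaaATGTAGTGGAACCAA
NDUFV3-202, exon 3 to the last exon: gaggcggcacacaggAGCCAGCCCCAGTGC

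These letters show that the same last exon follows exon 2 in NDUFV3-201 and exon 3 in NDUFV3-202. The transcripts also differ in length (4676 and 1575 bases), although NDUFV3-201 has the shorter coding part, and shares of counts are not corrected for length. The noncoding forms NDUFV3-203 and NDUFV3-204 held 34.6% in MCF10A, 36.1% in MCF10AT1 and 28.9% in MCF10Ca1a, and 12% in MCF10A, 10.1% in MCF10AT1 and 7.14% in MCF10Ca1a.

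NDUFS1 was called in both comparisons with MCF10Ca1a (adjusted p = 2.9e-04 against MCF10A and 4.1e-04 against MCF10AT1). NDUFS1-201, of 11819 bases, took 22.3, 21.1 and 20.6% in MCF10A, then 20.6, 20.5 and 23.8% in MCF10AT1 and 8.02, 8.14 and 7.88% in MCF10Ca1a. NDUFS1-202, of 2631 bases, took 37.2% in MCF10A, 36.5% in MCF10AT1 and 49.3% in MCF10Ca1a on average. NDUFS1-205, of 2371 bases and with a coding part as long as that of NDUFS1-201, was at 0 counts in every MCF10A and MCF10AT1 library and took 15.3, 11.9 and 14.2% in MCF10Ca1a. UQCRC2-213, an annotated form of 5 exons and 535 bases, took 8.07, 8.35 and 8.41% in MCF10A, then 7.07, 7.30 and 7.56% in MCF10AT1 and 19.0, 17.3 and 17.0% in MCF10Ca1a, while the 14-exon UQCRC2-201 held 86.7% in MCF10A, 87.6% in MCF10AT1 and 79.1% in MCF10Ca1a (adjusted p = 6.6e-04 for MCF10Ca1a against MCF10A). TPM divides counts by length, and on that scale UQCRC2 had the opposite sign to its counts in MCF10Ca1a. NDUFB10-202, of 3 exons where NDUFB10-201 has 4, took 15.7, 16.6 and 14.1% in MCF10A, then 13.4, 11.8 and 11.5% in MCF10AT1 and 26.9, 29.3 and 27.2% in MCF10Ca1a (adjusted p = 0.0021 for MCF10Ca1a against MCF10A and 7.7e-04 against MCF10AT1). The MCF10Ca1a libraries lay above all others for both forms.

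Apart from NDUFC1, the other genes called in MCF10Ca1a against MCF10A had smaller shifts, given for the transcript whose share moved most. In complex I these were NDUFA12-201 (88.4% in MCF10A and 79.3% in MCF10Ca1a), NDUFC2-201 (27.4% in MCF10A and 19.5% in MCF10Ca1a), NDUFS5-202 (50.6% in MCF10A and 58.0% in MCF10Ca1a), NDUFS4-201 (91.0% in MCF10A and 85.7% in MCF10Ca1a) and NDUFB11-202 (84.3% in MCF10A and 79.6% in MCF10Ca1a). In complex II they were SDHC-202 (91.7% in MCF10A and 84.3% in MCF10Ca1a) and SDHA-201 (81.5% in MCF10A and 74.3% in MCF10Ca1a), and in complex III UQCRQ-203 (29.5% in MCF10A and 21.2% in MCF10Ca1a) and UQCRB-201 (5.89% in MCF10A and 2.92% in MCF10Ca1a). In complex IV they were COX6C-206 (90.8% in MCF10A and 83.0% in MCF10Ca1a), COX4I1-201 (79.8% in MCF10A and 72.8% in MCF10Ca1a), COX7B-205 (25.3% in MCF10A and 18.8% in MCF10Ca1a) and COX5A-204 (7.26% in MCF10A and 11% in MCF10Ca1a). NDUFA7 was called in MCF10Ca1a against MCF10AT1 alone, with NDUFA7-201 (93.1% in MCF10AT1 and 81.0% in MCF10Ca1a). In NDUFC1 the share of NDUFC1-204 was 45, 49.3 and 48.8% in MCF10A, then 75.8, 0 and 0% in MCF10AT1 and 79.0, 79.4 and 71.9% in MCF10Ca1a. An MCF10AT1 library stood apart from its replicates there, and the part of read assignment between the forms was not tested.

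**Figure D4:**
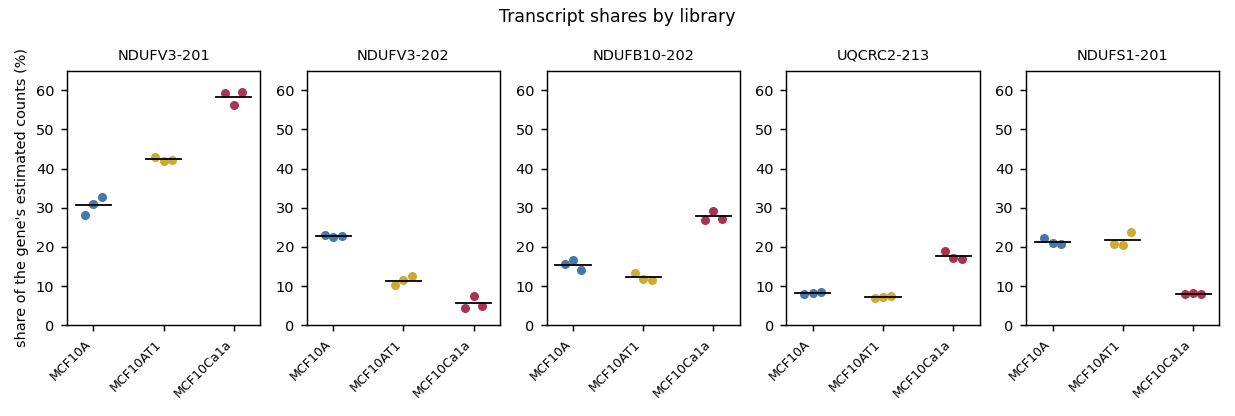
Share of a gene's estimated counts (y axis, percent) taken by 5 transcripts in each of the 9 libraries. Points are libraries and bars are means of a line: NDUFV3-201 is higher and NDUFV3-202 lower in each later line, and the other 3 change in MCF10Ca1a.

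The 55 genes lie on 19 chromosomes, and the medians of their neighbours were set beside them. For each, the median log2 change of all other tested genes within 5 Mb was taken (26 to 255 genes, members left out, GENCODE 29 positions on GRCh38). Across the 55 genes the correlation of a member's change with that median was r = 0.62 (Spearman's rho = 0.51) in MCF10AT1 against MCF10A, r = 0.60 (0.51) in MCF10Ca1a against MCF10A and r = 0.59 (0.48) in MCF10Ca1a against MCF10AT1. Members with the same sign as that median numbered 25, 42 and 40 of 55 in that order. These are descriptions across genes that share libraries and partly share neighbours, and have no test.

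SDHA (chr5:218241-256700) lies near the end of chromosome 5, where the median neighbour was 0.68 in MCF10Ca1a against MCF10A, beside 1.10 for SDHA itself. NDUFS6 (chr5:1801400-1816605), in the same stretch, changed by 0.35. On chromosome 8, UQCRB (chr8:96225920-96235634), COX6C (chr8:99873200-99894062), NDUFB9 (chr8:124539101-124580648) and CYC1 (chr8:144095027-144097525) changed by -0.58, -0.92, -0.95 and -0.82, and their neighbours' medians were -0.62, -0.64, -0.60 and -0.58. All 4 of these genes were thus low in MCF10Ca1a together with the genes around them. On chromosome 9, NDUFB6 (chr9:32552999-32573184) and NDUFA8 (chr9:122144058-122159819), the members with the 2 highest changes in MCF10AT1 against MCF10A, had neighbours at 0.37 and 0.52. On chromosome 3, NDUFB4 (chr3:120596309-120602500) and NDUFB5 (chr3:179604690-179627647) had neighbours at 0.41 and 0.47 in MCF10Ca1a against MCF10A, and for COX4I1 on chromosome 16 (chr16:85798633-85807044) they were at 0.84. SDHB (chr1:17018722-17054170) changed by 0.48 beside 0.49, and NDUFA12 (chr12:94897055-95003770) by -0.67 beside -0.80.

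Other members departed from their neighbours. NDUFA5 (chr7:123536997-123558255) changed by -1.14 in MCF10Ca1a against MCF10A while its neighbours' median was 0.24. NDUFB2 (chr7:140690777-140722790) changed by -0.84 beside 0.01, and NDUFA1 (chrX:119871487-119876662) by -1.02 beside -0.20. NDUFA6 (-0.60 beside -0.00) and NDUFC2 (-0.72 beside -0.06) did so too, and SDHB in MCF10AT1 against MCF10A rose by 0.62 beside -0.07. DNA copy number was not measured here, and the part of position in these changes was not tested.

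**Figure D5:**
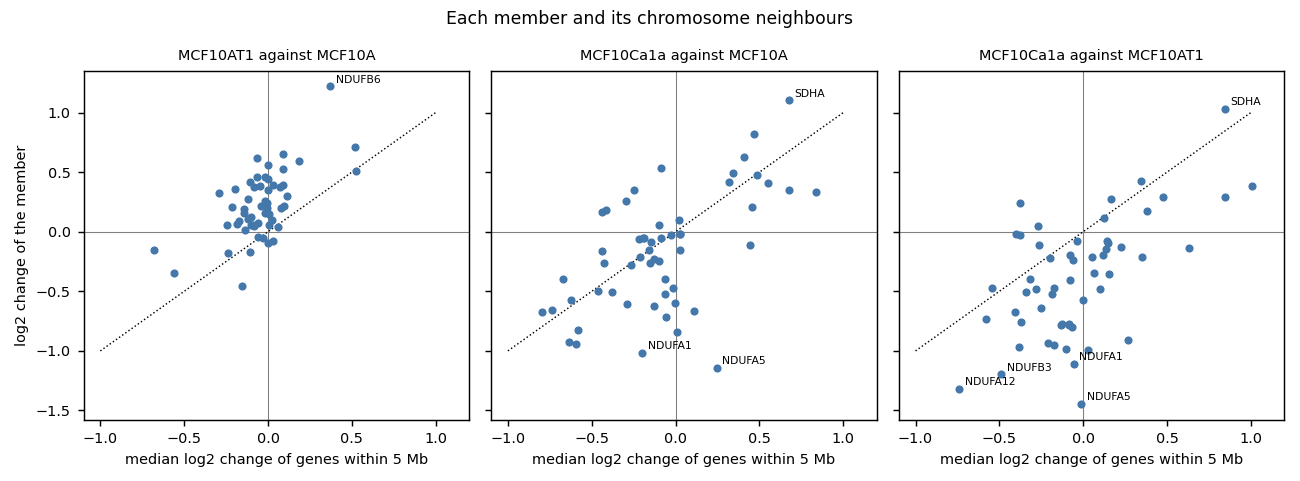
Log2 change of each of the 55 genes (y axis) against the median log2 change of the other tested genes within 5 Mb (x axis) in the 3 comparisons. The dotted line marks equal values and genes with a change of 1 or more in size are named: SDHA lies high beside high neighbours, and NDUFA5 lies low although its neighbours do not.

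The other genes of the pathway were counted from lists set by gene symbol. Over all genes tested, 29.8% were called higher and 31.8% lower in MCF10AT1 against MCF10A. The shares were 39% and 41.9% in MCF10Ca1a against MCF10A, and 38% and 40.3% in MCF10Ca1a against MCF10AT1. A list of 24 further nuclear genes of the same complexes held subunits and an inhibitor of ATP synthase. Of these, 17 were higher and 1 lower in MCF10AT1 against MCF10A (12 and 5 with the length trend removed). The split was 3 and 17 in MCF10Ca1a against MCF10A, and 2 and 20 in MCF10Ca1a against MCF10AT1. COX6B1, a complex IV subunit facing the intermembrane space, rose most against MCF10A in both other lines, by 0.83 and 0.55. ATP5MC3, which encodes the ring subunit of ATP synthase, fell most in MCF10Ca1a (-1.05 against MCF10A and -1.41 against MCF10AT1). Of a list of 8 alternative isoforms and related subunits, 2 passed the filter. COX6B2, the testis form of COX6B, had 7, 12 and 13 counts in MCF10A, then 79, 73 and 69 in MCF10AT1 and 282, 260 and 237 in MCF10Ca1a, and changed by 2.80 and 5.51 against MCF10A. COX7A2L, a broadly expressed protein that links complexes III and IV, rose against MCF10A in both lines (0.52 and 0.67), and COX4I2, COX6A2 and COX7A1 had 0 counts.

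Of 53 assembly factors, 34 were higher and 5 lower in MCF10AT1 against MCF10A, beside 29.8% and 31.8% of all genes tested. In MCF10Ca1a against MCF10A the split was 16 and 29 (20 and 21 on log2(TPM + 1)), beside 39% and 41.9%. In MCF10Ca1a against MCF10AT1 it was 8 and 36 (15 and 26 on log2(TPM + 1)), beside 38% and 40.3%. The complex I factor DMAC1 rose most (1.54) and the complex IV factor COX20 fell most (-1.13) in the first of these. In MCF10Ca1a the complex IV factor COX19 rose most (1.32 against MCF10A and 1.31 against MCF10AT1). The complex III factor UQCC3 fell most (-2.74 and -3.43), and its level was 9.14 TPM in MCF10A, 13.4 in MCF10AT1 and 1.48 in MCF10Ca1a. Of 17 genes of electron carriers and coenzyme Q synthesis, 8 were higher and 4 lower, 5 and 11, and 4 and 10 in the 3 comparisons in the same order, the last 6 and 6 on log2(TPM + 1). ETFB, a carrier for electrons from fatty acids, rose most against MCF10A (0.88 and 1.17). COQ3, a methyltransferase of coenzyme Q synthesis, fell most in MCF10Ca1a (-2.27 and -2.96). COQ8A, a kinase-like protein of that pathway, fell most in MCF10AT1 (-1.39) and rose most from there to MCF10Ca1a (0.97).

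Of 18 regulators of mitochondrial biogenesis, 5 were higher and 6 lower, 4 and 10, and 5 and 11 in the 3 comparisons. The shares over all genes tested were 29.8% and 31.8%, 39% and 41.9%, and 38% and 40.3%. The first split of the regulators lay near the first of these. PPARGC1A, the coactivator PGC-1alpha, had 23, 25 and 31 counts in MCF10A, then 133, 141 and 141 in MCF10AT1 and 1, 2 and 0 in MCF10Ca1a, so it rose in MCF10AT1 by 2.42 and was at 2 counts or fewer in each MCF10Ca1a library. ESRRG, an estrogen-related receptor, had 20, 14 and 14 counts in MCF10A, then 54, 68 and 49 in MCF10AT1 and 135, 118 and 133 in MCF10Ca1a, and rose most in MCF10Ca1a (3.91 against MCF10A and 2.07 against MCF10AT1). Both are low-level genes. NRF1 itself changed by -0.37, -1.19 and -0.82. TFB2M, a mitochondrial transcription factor, fell most in MCF10AT1 (-0.98). Of 17 genes of the citrate cycle and pyruvate dehydrogenase, 11 were higher and 1 lower (4 and 2 on log2(TPM + 1)), 8 and 6, and 5 and 10 (7 and 6 on log2(TPM + 1)). FH, fumarate hydratase, which acts on the product of complex II, fell most against MCF10A in both lines (-0.84 and -1.94). PDHB rose most in MCF10AT1 (0.66), IDH3B in MCF10Ca1a (1.02 and 0.81), and DLAT fell most from MCF10AT1 to MCF10Ca1a (-1.21). Of 78 genes of the mitochondrial ribosome, which makes the subunits encoded in mitochondrial DNA, 53 were higher and 6 lower (42 and 17 with the length trend removed), 15 and 47, and 10 and 57 (22 and 48 on log2(TPM + 1)). MRPL50 (0.93) and MRPS21 (-1.24) changed most in MCF10AT1 against MCF10A. MRPS30 rose most in MCF10Ca1a (1.0 and 0.88), MRPL54 fell most against MCF10A (-2.29) and MRPL15 against MCF10AT1 (-2.47). None of these lists was set against the members by a test.

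Some members have copies, picked here by gene name, with which reads could be shared. How alike they are in sequence was not measured. NDUFC2-KCTD14, also picked by name, overlaps NDUFC2 itself (431 exon bases on the same strand). Of 121 genes so picked, 10 passed the filter and 8 had a mean of 10 counts or more. UQCRHL held 7.07% as many counts as UQCRH. SDHAP4 held 8.94% as many as SDHA, and 2 entries named SDHAP1 held 3.38% and 2.28%, so the SDHA values are uncertain by the reads these copies could take. For SDHAP4 this share was 8.41% to 15.3% in the MCF10A libraries, 11.4% to 14.3% in MCF10AT1 and 2.95% to 3.81% in MCF10Ca1a, so the uncertainty is not the same in each line. The copies did not move alike. SDHAP4 was lower in MCF10Ca1a (-0.64 against MCF10A and -0.83 against MCF10AT1), the first SDHAP1 entry was higher there like SDHA (0.60 against each) and the second was not called (0.08 and 0.05). NDUFV2P1 (1.53%), NDUFC2-KCTD14 (1.21%), UQCRFS1P1 (0.551%) and NDUFB10P1 (0.307%) held less. Exons of NDUFA7, NDUFA9, NDUFA11, NDUFA13, NDUFB2, NDUFB8, NDUFC2, NDUFS3 and SDHD overlap another tested gene on the same strand, such as PTPMT1 for NDUFS3 (721 bases), and their values may include reads of that gene. The libraries were stranded per the labels, but whether quantification used the strand is not given in the sources used here, so genes overlapped on the other strand, such as NDUFA1 with RNF113A (341 bases) and NDUFB11 with RBM10 (636 bases), carry the same limit.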

How the data were processed

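RNA was sequenced from 9 libraries, 3 per line. The authors deposited estimated counts per gene and transcript and TPM, made with Salmon on hg38 per the submitters' processing notes; the version, the annotation and the use of strand are not given in the sources used here. All columns were matched to samples by name and used. Counts were rounded and fitted over all genes with edgeR 4.0.16 (quasi-likelihood, TMM, filterByExpr with a minimum count of 10, line as the only term), and p-values were adjusted by Benjamini-Hochberg over 17910 genes, with calls under 0.05. Transcript usage and log2(TPM + 1) were fitted with limma 3.58.1; DESeq2 1.42.0, the deposited length-scaled and scaled counts, thinning, a length trend, a replicate block and leaving out each library were alternatives. Scripts were tested on simulated data. Depth was 32930503 to 69508842 counts, and counts of replicate pairs varied 2.39 to 72.4 times as much as counting error alone would give (chi-square per degree of freedom), least in MCF10Ca1a, so counting error is part of the spread there. Positions and transcripts came from GENCODE 29 (GRCh38) and promoters from RefSeq (GRCh38.p14).
Members and gene lists were chosen with earlier results of these data known. Members given in every library were the called genes with the largest rise and fall per complex and comparison. Those changed at least 2-fold and those called in no comparison were given in the same way. Members of highest and lowest mean TPM per complex were given as line means. For other lists, the called genes with the largest rise and fall were given, mostly as changes. For usage, the transcript of each called gene whose share changed most was given, by library or as line means. Other forms of NDUFV3, NDUFS1 and UQCRC2 were added after their values were seen. Member genes named with a change alone account for the rest, and NRF1 was added outside these rules for its motif. One gene of the other lists is not reported here.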

Additional observations from a re-analysis of the deposited data

How the results depend on the processing

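The direction of the member medians held in each comparison under each setting run, and the counts of calls moved with the scale and with transcript length. Main values were 30 higher and 3 lower with a median of 0.199 in MCF10AT1 against MCF10A, 15 and 27 with -0.155 in MCF10Ca1a against MCF10A, and 7 and 38 with -0.401 in MCF10Ca1a against MCF10AT1. On log2(TPM + 1), log2(TPM + 0.1) and log2(TPM + 1) without a filter, lower calls in MCF10AT1 against MCF10A were 9, 9 and 8, higher calls without a filter were 19, and medians were 0.0705, 0.0708 and 0.0705; medians in MCF10Ca1a against MCF10A were -0.0436, -0.0437 and -0.0436; higher calls in MCF10Ca1a against MCF10AT1 were 18, 17 and 17, with medians of -0.0821, -0.0823 and -0.0821. With the length trend removed, lower calls in MCF10AT1 against MCF10A were 14 with a median of 0.0281, and higher calls in MCF10Ca1a against MCF10AT1 were 11 with a median of -0.218. With no filter on low counts the medians were -0.229 in MCF10Ca1a against MCF10A and -0.489 in MCF10Ca1a against MCF10AT1. The cause of these shifts was not tested. Leaving out each library gave 2 to 7 lower calls in MCF10AT1 against MCF10A, the highest without MCF10A replicate 1. The usage test gave 0 to 1 members there, 12 to 16 in MCF10Ca1a against MCF10A (18 with all libraries) and 8 to 13 in MCF10Ca1a against MCF10AT1, the lowest without MCF10AT1 replicate 1 or 3. No pairing by replicate number was seen: same-numbered libraries correlated at -0.060 to 0.045 in their deviations, and 3 of 18 correlated best with their own number. These correlations cannot show whether the numbers mark shared days or cultures, which the labels do not say. With the number as a replicate block the counts were 31 and 3, 15 and 28, and 8 and 38, and the usage test called 0, 13 and 10 members. Sign changes are listed where the reported fit or the alternative made a call. On the TPM scale in MCF10AT1 against MCF10A these changed sign: NDUFS8 (-0.011). With the length trend removed in MCF10AT1 against MCF10A these did: NDUFA1 (-0.17), NDUFB1 (-0.011), NDUFB2 (-0.18), NDUFB4 (-0.036), NDUFC2 (-0.021), NDUFS5 (-0.13), NDUFS6 (-0.18), NDUFS8 (-0.050), UQCRH (-0.19), COX5A (-0.019), COX8A (-0.20). On the TPM scale in MCF10Ca1a against MCF10A these changed sign: NDUFS8 (0.11), SDHC (0.055 or 0.056), UQCRC2 (0.36). In MCF10Ca1a against MCF10A UQCRC2 also did with the deposited length-scaled counts and scaled counts (0.20 and 0.20). On the TPM scale in MCF10Ca1a against MCF10AT1 these changed sign: NDUFA3 (0.11), NDUFA10 (0.27), NDUFB8 (0.056 or 0.057), NDUFS7 (0.021 or 0.022), NDUFS8 (0.12), NDUFV1 (0.036), SDHB (0.13), SDHC (0.28), UQCRC1 (0.040), UQCRC2 (0.18), COX5A (0.20), COX8A (0.15). With the length trend removed in MCF10Ca1a against MCF10AT1 these did: NDUFA10 (0.11), NDUFS8 (0.011), SDHB (0.034). These 62 values belong to 26 member changes. A further 109 values, of 36 member changes called in neither fit, also changed sign, among them NDUFA11, NDUFB8, UQCRQ, COX8A and ATP5F1B in MCF10Ca1a against MCF10A on TPM and NDUFA2, NDUFA11, NDUFB8, NDUFB10 and UQCRB in MCF10AT1 against MCF10A with the length trend removed. Of all member values under alternatives, those 109 included, 3145 kept their side of the threshold, 110 passed it newly and 148 fell short of it. Depth was lowest in MCF10Ca1a, and with all libraries thinned to the smallest total the counts stayed within 1.5 times the main ones.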
